A study of Mus musculus with 12 samples.

Results

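The numbered Zfp genes of the mouse have a symbol of Zfp followed only by digits. They were followed through ribosome-bound RNA and lysate RNA of samples labelled adult dorsal root ganglion (DRG) neuron. Of the 9073 genes in the count table, 134 carried such a symbol. The mouse symbol table holds 374 such symbols, and the other 240 were not analysed here. The label is one of nomenclature: the genes share a predicted zinc finger protein and not a tissue or a process.

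A C2H2 zinc finger is a short protein loop folded around a zinc ion. Arrays of such fingers read DNA, and some bind RNA or other proteins. Many Zfp genes belong to the Krüppel-associated box (KRAB) family, which arose by tandem duplication and lies in clusters on a few chromosomes. KRAB proteins recruit the corepressor Trim28 and silence transposable elements and imprinted genes. Others act outside repression, in mRNA decay (Zfp36), in the sensing of stalled ribosomes (Zfp598) or as developmental transcription factors (Zfp503, Zfp703).

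The study set 4 groups of 3 deposited samples side by side: IP with AAV-shGpr151, IP with AAV-control, Input with AAV-shGpr151 and Input with AAV-control. All groups shared the genotype RPL22HA+/+;Advillin-Cre+, in which the Cre of sensory neurons tags the ribosomal protein Rpl22 with HA. IP is the RNA recovered with an anti-HA antibody, a measure of ribosome-bound RNA of the tagged cells, and Input is the RNA of the lysate before it. AAV-shGpr151 carries a hairpin against Gpr151, an orphan receptor. Per the series' design text, the neurons were cultured after a preconditioning sciatic nerve injury, whereas the extraction protocol speaks of freshly collected ganglia, and which of these the lysates came from was not settled. The labels give no age beyond adult, no sex and no statement on separate animals or cultures. A comparison of IP with Input therefore reports how ribosome-bound RNA differs from lysate RNA, and a comparison of AAV-shGpr151 with AAV-control within either fraction reports how those libraries differ.

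The 3 samples of a group differed by no more than counting noise over the Zfp genes, with a chi-square per degree of freedom of 0.95 in IP shGpr151, 1.18 in IP control, 0.955 in Input shGpr151 and 1.02 in Input control. Each group was therefore summed and counted as 1 library, so no value below has a biological replicate, and intervals cover counting error only. The summed libraries held 3285258 counts in IP shGpr151, 4245486 in IP control, 6148538 in Input shGpr151 and 6332991 in Input control. Gpr151 itself had 250 counts in the IP library labelled shGpr151 and 314 in IP control, a log2 ratio of -0.00 (95% interval -0.25 to 0.24). In Input it had 13 counts in the library labelled shGpr151 and 24 in control, a log2 ratio of -0.86 (-1.96 to 0.17). The hairpin label was thus not borne out by a lower Gpr151 level in IP, and IP shGpr151 and Input shGpr151 stand below for the libraries so labelled. All 15 sensory neuron markers examined were in the table, with a summed level of 17490 CPM (counts scaled to the library total) in IP shGpr151, 18030 in IP control, 1325 in Input shGpr151 and 1139 in Input control. Markers of macrophages summed to 455.1, 431.0, 359.4 and 319.4 CPM in the same order of libraries, with 8 of 10 in the table.

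Most Zfp genes were covered by few counts. The median Zfp gene had 30 counts in IP shGpr151, 37 in IP control, 19.5 in Input shGpr151 and 21 in Input control. Fewer than 30 counts stood behind 65 genes in IP shGpr151, 61 in IP control, 85 in Input shGpr151 and 85 in Input control. Only 29 Zfp genes reached 30 counts in each library. A filter on low counts kept 99 of the 134 for testing and left out 35, whose values enter the medians over all 134 but no count of calls. The chromosomes with the most members were chromosome 7, with 31 of the 91 numbered Zfp symbols that RefSeq places there, and chromosome 17, with 17 of 41. Such clusters hold close paralogs, so counts of these genes are uncertain to the extent that reads were split between copies, and whether counting used strand is not stated in the labels. Counts were also not corrected for transcript length, so levels are compared between libraries and not between genes.

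Promoter sequence was at hand for 112 of the 134 genes, from RefSeq on GRCm38.p6. The 4 shown cover 250 bases upstream of the start of genes at both ends of the IP to Input range, 2 high in IP (Zfp664 and Zfp451) and 2 low in IP (Zfp277 and Zfp113). Capitals mark GC boxes (GGGCGG, or CCGCCC on the other strand) and CCAAT boxes (CCAAT, or ATTGG on the other strand).
Zfp664 (chr5:124862455-124862704, plus strand): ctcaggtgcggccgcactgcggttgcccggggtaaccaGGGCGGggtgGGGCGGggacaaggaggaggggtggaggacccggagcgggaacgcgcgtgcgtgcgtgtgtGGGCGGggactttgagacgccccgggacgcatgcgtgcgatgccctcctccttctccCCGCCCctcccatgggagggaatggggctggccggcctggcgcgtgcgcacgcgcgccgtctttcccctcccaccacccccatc
Zfp451 (chr1:33814596-33814845, minus strand): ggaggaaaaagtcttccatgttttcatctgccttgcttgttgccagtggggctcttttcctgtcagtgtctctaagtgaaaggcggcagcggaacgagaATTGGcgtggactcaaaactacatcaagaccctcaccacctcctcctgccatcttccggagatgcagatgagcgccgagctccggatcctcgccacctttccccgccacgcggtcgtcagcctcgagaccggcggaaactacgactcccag
Zfp277 (chr12:40445791-40446040, minus strand): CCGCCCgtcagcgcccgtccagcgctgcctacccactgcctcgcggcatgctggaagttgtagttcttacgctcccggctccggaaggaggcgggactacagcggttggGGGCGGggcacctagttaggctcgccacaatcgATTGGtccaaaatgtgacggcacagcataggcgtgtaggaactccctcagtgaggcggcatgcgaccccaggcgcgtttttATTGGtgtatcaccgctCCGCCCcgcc
Zfp113 (chr5:138155745-138155994, minus strand): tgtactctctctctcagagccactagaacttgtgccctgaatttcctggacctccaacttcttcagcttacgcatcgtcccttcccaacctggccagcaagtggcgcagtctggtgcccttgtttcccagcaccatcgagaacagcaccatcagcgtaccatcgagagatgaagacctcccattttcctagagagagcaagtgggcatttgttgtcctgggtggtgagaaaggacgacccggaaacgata

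The Zfp664 promoter held 28 CpG pairs and 4 GC boxes, and that of Zfp277 held 24 CpG pairs and 3 GC boxes with 2 CCAAT boxes. In Zfp451 there were 17 CpG pairs and 1 CCAAT box, and in Zfp113 there were 9 CpG pairs and neither motif. The 2 promoters shown for either end of the range were thus unlike each other. Of 11 promoters of members past 2-fold higher in IP in control, 8 held a GC box and 7 a CCAAT box. Of 11 promoters of members past 16-fold lower, 4 held a GC box and 5 a CCAAT box. The median number of CpG pairs was 19 in the former and 14 in the latter, and these differences were not tested. Over the 112 Zfp promoters, 45.5% held a GC box on either strand, against 42.7% of 17492 protein-coding promoters of the same length. A CCAAT box occurred in 42% of Zfp promoters and 36.3% of all, and TATAAA in 6.25% and 12.4%. All 3 motifs were searched on both strands and counted independently, so sites of different motifs may overlap. The median number of CpG pairs was 12 in Zfp promoters and 10 in all. A match of letters is a description of the window and not a bound site.

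Ribosome-bound RNA held the bulk of the Zfp genes at lower levels than Input when set against the typical gene. The log2 ratio of IP to Input, scaled so that the bulk of genes lies near 0, had a median of -0.69 over the 134 Zfp genes in shGpr151 and -0.67 in control, against -0.01 and -0.06 over all 9073 genes. Among the 99 tested, edgeR's quasi-likelihood test at a Benjamini-Hochberg adjusted p of 0.05 called 17 higher in IP in shGpr151 and 43 lower. Over all genes tested, 33.7% were called higher and 33% lower in shGpr151. In control it called 16 higher and 40 lower, where 32.5% of all genes were called higher and 32.8% lower. These calls compare libraries and not conditions, and the shares of Zfp genes called were 17.2% higher and 43.4% lower in shGpr151, and 16.2% higher and 40.4% lower in control. A difference of at least 2-fold downwards in IP was seen for 59 of the 134 in shGpr151 and 54 in control, or 44% and 40.3%, against 28.4% and 27.2% of all genes.

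The direction of this shift depends on the scale. Ratios taken on library totals alone are higher by 2.19 in shGpr151 and 2.17 in control on the log2 scale for every gene. On that scale 65 of the 99 tested Zfp genes were called higher in IP and 17 lower in shGpr151, where 82.2% of all genes were called higher and 11.7% lower. In control 66 were called higher and 19 lower, where 83.7% of all genes were called higher and 11.1% lower. What does not depend on it is the place of the Zfp genes below the typical gene, which was better covered. The median gene of the table had 88 counts in IP shGpr151, 108 in IP control, 30 in Input shGpr151 and 32 in Input control. All 4026 genes with 30 or more counts in each library had scaled medians of -0.65 in shGpr151 and -0.50 in control. The 29 Zfp genes among them had -1.49 and -1.36. The part of coverage in the shift was not tested. The shift was not confined to the numbered symbols. Of the 39 other zinc finger genes listed for comparison, 10 have a Zfp symbol with a letter, and these had medians of -2.48 in shGpr151 and -2.64 in control, with 9 of the 10 below 0 in each treatment. The other 29, of the Klf, Sp, Egr, Zbtb, Zkscan and Zscan families, had medians of 0.61 in shGpr151 and 0.36 in control, a division made after the values were seen. At the ends of the 39 stood Klf6, a Krüppel-like factor, at 5.50 in shGpr151 and 5.11 in control, and Zbtb45, of the BTB family, at -5.45 in shGpr151 and -6.06 in control. Which cells the Input RNA of the Zfp genes came from cannot be told in these bulk libraries and was not tested.

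**Figure D1:**
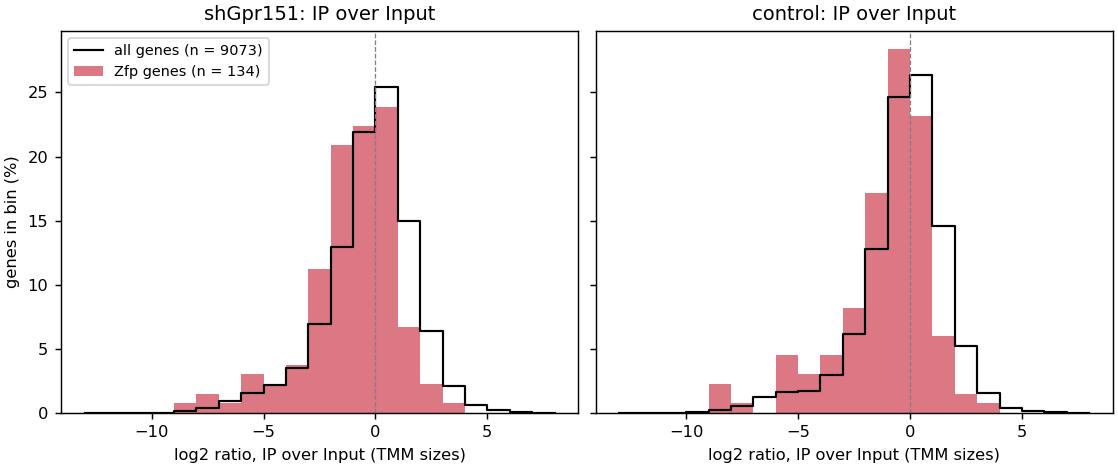
Share of genes (%) by log2 ratio of IP to Input, in bins of 1, for shGpr151 on the left and control on the right. Filled bars are the 134 Zfp genes and the line all 9073 genes; the Zfp genes have more of their mass below 0, with medians of -0.69 in shGpr151 and -0.67 in control, and a tail past 16-fold lower.

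The ratios of IP to Input were alike in both treatments, which share no library. Over the 134 genes Pearson's r between them was 0.948 and Spearman's rho 0.887, as a description across genes. Of the genes called higher in IP, 12 were called in both treatments, which is 70.6% of those in shGpr151 and 75% of those in control. Of the genes called lower, 37 were called in both, 86.0% of those in shGpr151 and 92.5% of those in control. No gene was called in opposite directions.

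Zfp664, a gene of little known function, and Zfp451, a SUMO ligase, were the most IP-rich members by ratio. Zfp664 had 542, 526 and 510 counts in the samples of IP shGpr151 and 693, 635 and 632 in those of IP control. In Input it had 22, 14 and 21 counts in shGpr151 and 18, 13 and 24 in control. All 6 IP samples lay far above all 6 Input samples, with a log2 ratio of 3.50 (3.12 to 3.91) in shGpr151 and 3.56 (3.17 to 3.97) in control. Zfp451 had 176, 224 and 186 counts in IP shGpr151, 243, 235 and 239 in IP control, 11, 15 and 17 in Input shGpr151 and 12, 18 and 15 in Input control. Its ratios were 2.48 (2.03 to 2.96) in shGpr151 and 2.40 (1.96 to 2.87) in control, again with no overlap of IP and Input samples. On library totals alone both genes stay higher in IP.

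Other members higher in IP rested on few Input counts. Zfp65 had 36 counts in IP shGpr151 against 3 in Input shGpr151, a ratio of 2.29 (0.63 to 4.64), and 69 in IP control against 6 in Input control, a ratio of 1.93 (0.73 to 3.42). Zfp651 had 119 counts in IP shGpr151 against 13 in Input shGpr151 (1.90, 1.07 to 2.85) and 97 in IP control against 9 in Input control (1.83, 0.85 to 3.01). For Zfp68 the ratio was 1.18 (0.15 to 2.39) in shGpr151 and 2.10 (0.81 to 3.77) in control, from 50 IP counts over 9 Input counts in shGpr151, where 2 of 6 omissions of a sample ended the call, and 65 over 5 in control. Zfp931, with more Input counts, had 161 in IP shGpr151 against 39 in Input shGpr151 (0.76, 0.24 to 1.30) and 231 in IP control against 37 in Input control (1.05, 0.54 to 1.59). The IP and Input samples of these genes, scaled to library size, did not overlap within either treatment. Zfp945 stood at 0.35 (-0.06 to 0.77) in shGpr151, not called, and 0.88 (0.42 to 1.37) in control, called higher. Zfp637 stood at -0.29 (-0.71 to 0.14) in shGpr151, not called, and 0.48 (0.04 to 0.94) in control, called higher but not in 3 of 6 omissions of a sample. For neither was the difference between treatments called.

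**Figure D2:**
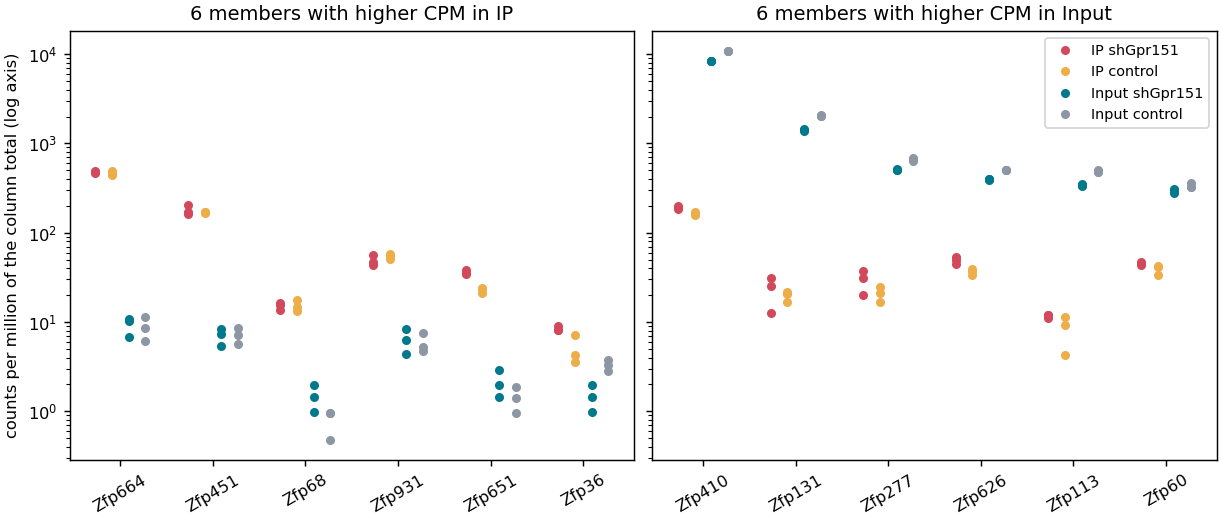
CPM, of the sample's total (log axis), in each deposited sample for 6 Zfp genes with higher CPM in IP, on the left, and 6 with higher CPM in Input, on the right. Each point is 1 of 3 samples of the IP library labelled shGpr151, IP control, the Input library labelled shGpr151 or Input control; Zfp664 and Zfp451 lie far above Input in IP, and Zfp410 and Zfp131 far below it.

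At the other end, 11 Zfp genes in shGpr151 and 14 in control were below Input by more than 16-fold in IP, which is 8.21% and 10.4% of the 134, against 5.03% and 5.36% of all genes. All 11 of the genes in shGpr151 were among the 14 in control. The 16-fold mark was set with values known, and the 14 genes of control are used from here on. Zfp11 was just inside it in control at -4.07, and Zfp689 just outside at -3.74. Together these 14 genes held 14.6% of the Zfp counts in IP shGpr151, 13.1% in IP control, 94.45% in Input shGpr151 and 95.77% in Input control. Without them the Zfp genes made up 0.2435% of IP shGpr151, 0.2309% of IP control, 0.06893% of Input shGpr151 and 0.06771% of Input control.

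Zfp410, a DNA-binding activator of the nucleosome remodeller gene Chd4, dominated the Zfp counts of Input. It had 203, 215 and 220 counts in IP shGpr151, 240, 226 and 231 in IP control, 17185, 17127 and 17369 in Input shGpr151 and 23016, 22905 and 22654 in Input control. All Input samples lay above all IP samples, and those of Input control above those of Input shGpr151. Zfp410 alone took 0.8405% of the Input shGpr151 library and 1.083% of Input control, against 0.01942% of IP shGpr151 and 0.01642% of IP control. The ratio of IP to Input was -7.63 (-7.75 to -7.52) in shGpr151 and -8.22 (-8.33 to -8.11) in control.

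Zfp131, a transcription factor with a BTB domain, had 28, 14 and 34 counts in IP shGpr151, 29, 31 and 24 in IP control, 2943, 2860 and 2813 in Input shGpr151 and 4267, 4253 and 4362 in Input control. Its IP to Input ratio was the lowest of the Zfp genes in both treatments, at -8.12 (-8.46 to -7.79) in shGpr151 and -8.86 (-9.18 to -8.55) in control. Zfp113 stood at -7.07 (-7.58 to -6.61) in shGpr151 and -8.05 (-8.58 to -7.57) in control. Zfp277, a partner of the Polycomb protein Bmi1, stood at -6.31 (-6.61 to -6.02) in shGpr151 and -7.15 (-7.47 to -6.85) in control. In Zfp626 the ratio was -5.21 (-5.45 to -4.98) in shGpr151 and -5.97 (-6.21 to -5.73) in control, and in Zfp605 it was -5.76 (-6.40 to -5.18) in shGpr151 and -5.42 (-5.88 to -4.99) in control. The IP and Input samples of each of these genes were separate by CPM as well, so the direction holds on library totals alone. RefSeq, on another build, places another gene over 8 of the 14 (57.1%) and over 41 of the other 120 Zfp genes (34.2%). Examples are the pseudogene Gm20958 at Zfp410 and the long non-coding RNA Gm40406 at Zfp277. Whether reads of such a gene entered these counts was not tested.

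Zfp938 and Zfp932 were higher in IP by CPM and lower relative to the typical gene. Zfp938 had 93.8 CPM in IP shGpr151, 89.3 in IP control, 47.2 in Input shGpr151 and 50.8 in Input control. Its scaled ratio was -1.20 (-1.44 to -0.97) in shGpr151 and -1.36 (-1.58 to -1.14) in control, but 0.99 and 0.81 on library totals alone. Zfp932, a KRAB repressor of endogenous retroviruses in mouse cells, had 79.8 CPM in IP shGpr151, 75.6 in IP control, 26.7 in Input shGpr151 and 27.0 in Input control. Its ratio was -0.61 (-0.90 to -0.32) in shGpr151 and -0.69 (-0.96 to -0.41) in control, but 1.58 and 1.48 on library totals alone. Zfp706 had 89.5 CPM in IP shGpr151, 83.9 in IP control, 97.7 in Input shGpr151 and 85.1 in Input control, at ratios of -2.32 (-2.53 to -2.12) in shGpr151 and -2.19 (-2.39 to -2.00) in control. Zfp207, a Bub3-binding protein of the mitotic spindle that also acts in splicing, was not called in either treatment, at 0.19 (-0.22 to 0.60) in shGpr151 and 0.35 (-0.05 to 0.76) in control.

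Of the members known to act on RNA or ribosomes, 8 of the 11 listed were in the table, and all were tested. Against Input, 2 were called higher in IP and 2 lower in shGpr151, and 0 higher and 3 lower in control, where each direction took 32.5% to 33.7% of all genes. With 8 genes these counts do not set the group apart. Zfp598, the ubiquitin ligase that marks collided ribosomes, had 14, 27 and 17 counts in IP shGpr151 and 25, 17 and 26 in IP control. In Input it had 4, 4 and 4 counts in shGpr151 and 7, 5 and 4 in control. The ratio was 0.98 (0.07 to 2.02) in shGpr151, where it was called, and 0.49 (-0.31 to 1.38) in control, where it was not. The call was lost in 4 of 6 omissions of a sample, at ratios of 0.67 to 1.18. Zfp106, an RNA-binding protein whose loss causes motor neuron disease in mice, had a ratio of 1.05 (0.31 to 1.86) in shGpr151, which was called, and 0.40 (-0.28 to 1.15) in control. Zfp593, whose yeast relative serves the export of large ribosomal subunits, stood at -1.49 (-2.08 to -0.90) in shGpr151 and -1.02 (-1.63 to -0.40) in control, but at 0.70 and 1.14 on library totals alone. Zfp318, a nuclear protein of RNA processing, was among the 14 Input-rich genes, at -4.52 (-4.99 to -4.08) in shGpr151 and -5.09 (-5.52 to -4.69) in control. Zfp622, a relative of a yeast factor of large subunit maturation, had ratios of -0.02 in shGpr151 and -0.14 in control and was not called.

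Zfp36, known as tristetraprolin, is the CCCH-type member of the set and brings AU-rich mRNAs to the CCR4-NOT deadenylase. It had 9, 9 and 10 counts in IP shGpr151, 10, 6 and 5 in IP control, 4, 2 and 3 in Input shGpr151 and 6, 7 and 8 in Input control. Scaled to library size, IP shGpr151 lay above IP control and Input shGpr151 below Input control, with no overlap, on counts of 10 or fewer per sample. The ratio of IP to Input was 0.35 (-0.78 to 1.62) in shGpr151, not called, and -1.60 (-2.54 to -0.65) in control, called lower but at 0.57 on library totals alone. A list of mRNA decay genes around that complex, with its subunits, the Tob and Btg adaptors and the relatives Zfp36l1 and Zfp36l2, had 16 of 17 genes in the table. Of its 10 Cnot subunits, 1 was called higher in IP and 3 lower in shGpr151, and 1 higher and 2 lower in control. Among the other 6 genes 1 was called higher and 1 lower in each treatment. Each direction took 32.5% to 33.7% of all genes tested. Cnot10, a subunit of that complex, stood at -1.29 (-2.01 to -0.57) in shGpr151 and -2.80 (-3.57 to -2.07) in control. Going the other way, the adaptor Btg1 stood at 1.26 (0.88 to 1.65) in shGpr151 and 0.97 (0.63 to 1.33) in control. The subunit Cnot11 stood at 1.98 (0.99 to 3.16) in shGpr151, on 9 Input counts, and 2.97 (1.57 to 4.88) in control, on 4. Of the genes that work with Zfp598 in ribosome quality control, 14 of 19 were in the table. In each treatment 4 of the 14 were called higher in IP and 6 lower, against the same shares of all genes. Vcp, the segregase of that pathway, was high in IP at 3.22 (3.03 to 3.42) in shGpr151 and 3.15 (2.95 to 3.35) in control, and Abce1, the ribosome recycling factor, was low at -3.27 (-3.48 to -3.06) in shGpr151 and -3.89 (-4.09 to -3.68) in control.

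Of 28 members listed as regulators of chromatin or development, 15 were in the table and 13 were tested. Against Input, each direction of call took 32.5% to 33.7% of all genes tested. Of the 13, 4 were called higher in IP and 4 lower in shGpr151, and 3 higher and 3 lower in control. Zfp148 and Zfp281, close relatives that bind GC-rich promoters, were among those higher. Zfp148 had 83 counts in IP shGpr151 and 85 in IP control, against 8 in Input shGpr151 and 15 in Input control, with ratios of 2.08 (1.04 to 3.34) in shGpr151 and 0.91 (0.10 to 1.81) in control, where the samples overlapped and the call was lost in 4 of 6 omissions. Zfp281 had 62 counts in IP shGpr151 and 52 in IP control, against 9 in Input shGpr151 and 7 in Input control, with ratios of 1.49 (0.48 to 2.69) in shGpr151 and 1.30 (0.15 to 2.68) in control. Zfp536, a repressor of neuronal differentiation, was called higher in both treatments at 0.74. On the lower side, Zfp503, a developmental repressor, stood at -2.47 (-3.27 to -1.72) in shGpr151 and -2.74 (-3.60 to -1.93) in control. Its relative Zfp703 stood at -0.98 (-1.57 to -0.39) in shGpr151, called, and -0.73 (-1.42 to -0.01) in control, not called. Zfp652 was called lower at -0.91 (-1.74 to -0.06) in shGpr151 and -1.30 (-2.17 to -0.42) in control, but leaving out a sample moved the shGpr151 ratio between -1.20 and -0.29 and ended its call in 3 of 6 cases, and that of control in 1 of 6. On library totals alone Zfp703 in shGpr151 and Zfp652 in both treatments turn positive, at 1.21 for Zfp703 and at 1.27 in shGpr151 and 0.86 in control for Zfp652.

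Only 3 of the 6 KRAB members with a described target were in the table, and 2 of these were tested. Zfp445, which maintains imprints, had 50 counts in IP shGpr151 and 56 in IP control, against 11 in Input shGpr151 and 17 in Input control, and was called in no comparison. Zfp809, which silences murine leukaemia virus, was below the filter, with 18, 19, 9 and 9 counts in the same order. The corepressors that KRAB proteins use were better covered, with 25 of 27 in the table and 24 tested. Of these, 4 were called higher in IP and 6 lower in shGpr151, and 3 higher and 10 lower in control, at medians over the 25 of -0.08 in shGpr151 and -0.20 in control. Over all genes 33.7% were called higher and 33% lower in shGpr151, and 32.5% and 32.8% in control. Mphosph8, the chromodomain subunit of the HUSH complex, was high in IP at 4.40 (3.64 to 5.28) in shGpr151 and 3.31 (2.80 to 3.87) in control, and Hdac1, a histone deacetylase, was low at -3.62 (-3.93 to -3.33) in shGpr151 and -4.11 (-4.39 to -3.84) in control.

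Within IP, few Zfp genes differed between the library labelled shGpr151 and control. The median log2 ratio over the 134 was 0.07, against 0.01 over all genes. Of the 99 tested, 1 was called higher and 1 lower, where 3.72% of all genes were called higher and 5.02% lower. Past 2-fold there were 2 higher and 1 lower of the 134, where 0.76% of all genes were higher and 0.584% lower. The interval of the ratio lay within 2-fold either way for 52 genes, and the median half-width of the interval was 0.75 on the log2 scale. For the rest the interval reached past 2-fold in at least 1 direction.

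Zfp651 was the gene called higher in IP, with 38, 42 and 39 counts in shGpr151 and 34, 33 and 30 in control, or 36.2 and 22.8 CPM. The log2 ratio was 0.62 (0.22 to 1.02), with no overlap between the samples scaled to library size. The call was lost when any 1 of the 6 samples was left out, at ratios of 0.54 to 0.63. Zfp444 was the gene called lower, with 4, 7 and 3 counts in shGpr151 and 14, 17 and 15 in control, or 4.26 and 10.8 CPM. Its ratio was -1.39 (-2.37 to -0.50), again without overlap, and the call was lost in 2 of 6 such omissions. DESeq2 called neither gene, nor did edgeR on 1 summed library per group with an assumed biological coefficient of variation of 10%. Counts of Zfp genes at an unadjusted p under 0.05 were 13 by edgeR on the samples, 6 by DESeq2 and 3 with the assumed variation. Among the Zfp genes with the most IP counts, ratios were 0.01 (-0.08 to 0.11) for Zfp664, 0.20 (0.04 to 0.36) for Zfp410, 0.04 (-0.12 to 0.20) for Zfp451 and 0.03 (-0.19 to 0.25) for Zfp938, and none of them was called. None of the 8 RNA and ribosome members, the 13 tested chromatin and development members, the 24 tested KRAB corepressors or the 16 mRNA decay genes was called in IP. Of the 14 ribosome quality control genes 2 were called higher, among them Vcp at 0.19 (0.14 to 0.25). Over all genes 3.72% were called higher in IP and 5.02% lower, and lists of 8 to 24 genes are too short for these counts to set them apart.

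In Input, 11 of the 99 tested Zfp genes were lower in the library labelled shGpr151 and 1 was higher. Over all genes 8.7% were called lower and 8.34% higher. The median log2 ratio over the 134 was -0.05, against -0.06 over all genes, so the set as a whole did not stand off from the table. Past 2-fold there were 3 higher and 3 lower, where 2.85% of all genes were higher and 3.6% lower. None of the 11 was past 2-fold, and their ratios ran from -0.71 to -0.20.

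The genes called lower had 103 or more counts in Input control, but not every gene with that many was called. Zfp706, with 601 counts in Input shGpr151 and 539 in Input control, was not called. Zfp131 fell to 8616 counts in the Input library labelled shGpr151, against 12882 in Input control, a log2 ratio of -0.56 (-0.60 to -0.52). Zfp410 fell to 8405 CPM, against 10828 CPM in Input control, a ratio of -0.39 (-0.40 to -0.37). Zfp113 had 682, 698 and 711 counts in shGpr151 and 1064, 1008 and 999 in control, a ratio of -0.53 (-0.61 to -0.45). Zfp277 had 1072, 1032 and 1036 counts in shGpr151 and 1430, 1405 and 1350 in control, a ratio of -0.39 (-0.46 to -0.33). Zfp626 had 819, 810 and 802 counts in shGpr151 and 1072, 1069 and 1064 in control, a ratio of -0.38 (-0.45 to -0.30). The samples of these 5 genes did not overlap between the libraries. Zfp710 (-0.53), Zfp318 (-0.50), Zfp672 (-0.51), Zfp846 (-0.71), Zfp605 (-0.25) and Zfp60 (-0.20) made up the rest. Calls of Zfp846 and Zfp672 were lost in 2 of 6 omissions of a sample and that of Zfp605 in 4, and the samples of Zfp605 overlapped. DESeq2 called 7 Zfp genes lower and 0 higher. With an assumed coefficient of variation of 10% no Zfp gene was called by edgeR, and 10 had an unadjusted p under 0.05, as did 12 by DESeq2 and 21 by edgeR on the samples.

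Zfp993, in a chromosome 4 cluster of near-identical genes and pseudogenes, was the gene called higher in Input. It had 13, 10 and 12 counts in shGpr151 and 7, 2 and 2 in control, a log2 ratio of 1.69 (0.68 to 2.82). The samples did not overlap, but its 16 overlapping or nested RefSeq neighbours mean that the copy behind these reads is uncertain. In IP its ratio was -0.23 (-0.90 to 0.43).

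Of the 11 genes lower in Input, 10 were among the 14 that were past the 16-fold mark in control. Over the 14, the hairpin ratio in Input had a median of -0.39 and was negative for 13, and in IP it had a median of 0.19 and was positive for 12. This was not particular to the Zfp genes. Over all 486 genes past that mark, the medians were -0.33 in Input and 0.14 in IP, and 351 of the 484 tested (72.5%) were called lower in Input, with 11 called higher. The 14 and the 486 were chosen by a ratio that uses the 2 control libraries of these comparisons, so the signs are a description. Zbtb45, a zinc finger gene outside the set, behaved likewise, with 2712 counts in Input shGpr151 and 3312 in Input control (-0.27, -0.34 to -0.19), against 152 in IP shGpr151 and 150 in IP control. Among the related lists, Hdac1 stood at -0.40 (-0.56 to -0.23) and Abce1 at -0.32 (-0.44 to -0.19) in Input, both called lower, while Rack1, a ribosomal scaffold, was called higher at 0.74 (0.66 to 0.83).

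**Figure D3:**
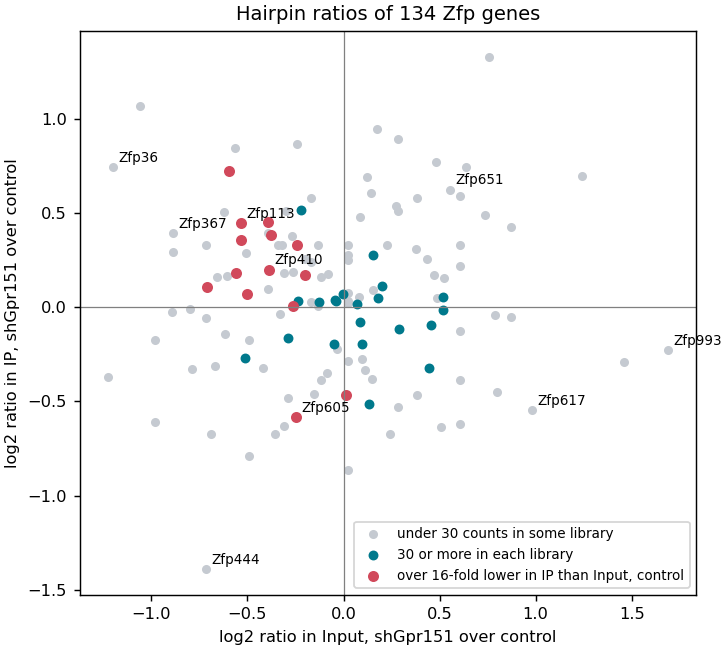
Log2 ratio of the library labelled shGpr151 to control in Input (horizontal) and in IP (vertical) for the 134 Zfp genes. Grey points had under 30 counts in some library; of the 14 red points, more than 16-fold lower in IP than Input in control, 13 lie left of 0 and 12 above it.

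Across the 134 genes the hairpin ratios in IP and in Input, which share no library, were unrelated as a description, with Pearson's r at 0.03 and Spearman's rho at 0.01. The sign was the same for 63 genes and opposite for 71. Much of either ratio is counting error, since the median half-width of the interval was 0.75 in IP and 0.98 in Input.

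The difference of the hairpin ratio between IP and Input, tested as the interaction of fraction and hairpin, was called for 10 Zfp genes, 8 higher in IP and 2 lower. Over all genes 5.45% were called higher and 8.81% lower. Past 2-fold there were 9 higher and 6 lower of the 134, where 7.53% of all genes were higher and 4.5% lower. The median difference was 0.13 over the 134 and 0.06 over all genes. Of the 8, 6 were Input-rich genes, with differences of 0.98 (0.31 to 1.65) for Zfp113, 0.89 (0.33 to 1.45) for Zfp710, 0.84 (0.42 to 1.26) for Zfp277, 0.76 (0.43 to 1.09) for Zfp626, 0.74 (0.29 to 1.19) for Zfp131 and 0.59 (0.43 to 0.74) for Zfp410. In all 6 the IP ratio was positive and the Input ratio negative. The IP ratios of 3 of them had intervals that excluded 0, at 0.20 (0.04 to 0.36) for Zfp410, 0.38 (0.05 to 0.71) for Zfp626 and 0.45 (0.02 to 0.88) for Zfp277, though none was called in IP. These 6 were chosen by values that enter the same ratios, so their signs and intervals are a description. Only Zfp410 and Zfp626 of the 10 kept the call in all 12 omissions of 1 sample.

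The other 4 rested on low counts. For Zfp36 the difference was 1.94 (0.55 to 3.33), from an IP ratio of 0.74 (-0.13 to 1.63) and an Input ratio of -1.20 (-2.51 to -0.01), and the call was lost in 9 of 12 omissions. For Zfp367 it was 1.28 (0.34 to 2.22), from 135 counts in IP shGpr151 and 129 in IP control, and 16 in Input shGpr151 and 30 in Input control, and it was lost in 10 of 12. Zfp617 differed by -1.53 (-2.55 to -0.51), with 30 counts in IP shGpr151 and 55 in IP control, and 37 in Input shGpr151 and 19 in Input control. Zfp993 differed by -1.92 (-3.08 to -0.76). Without IP control sample 3 or IP shGpr151 sample 3 the number of Zfp genes called dropped to 4, and without IP control sample 2 or Input control sample 2 to 6. No Zfp gene was called in the interaction with an assumed coefficient of variation of 10%, where 11 had an unadjusted p under 0.05, against 16 by edgeR on the samples and 13 by DESeq2, which called 6.

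**Figure D4:**
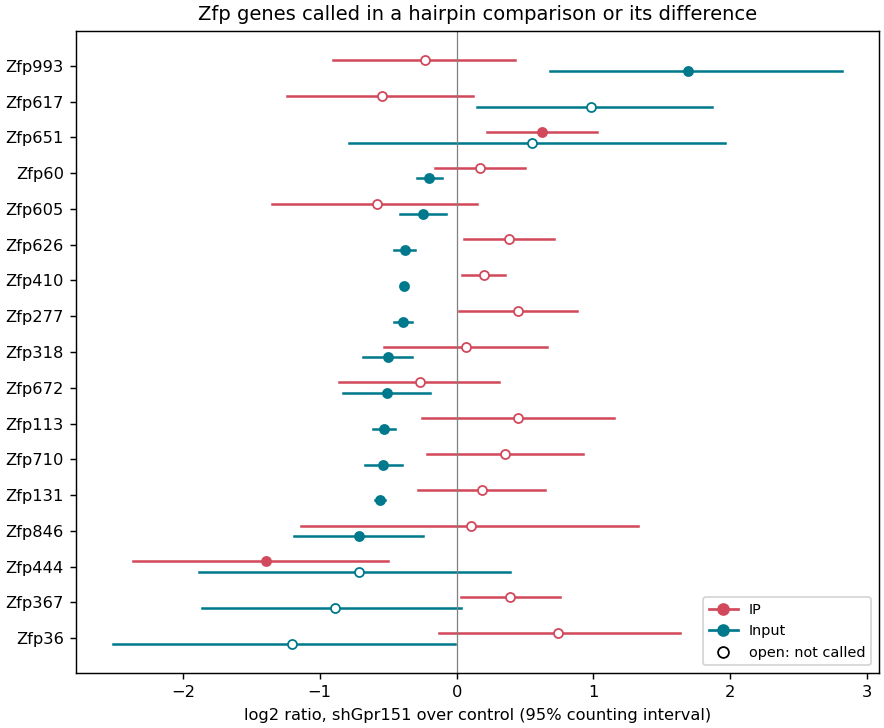
Log2 ratio of the library labelled shGpr151 to control, with 95% counting intervals, in IP (upper of each pair) and Input (lower) for the Zfp genes called in either fraction or in their difference. Filled points were called. Zfp410, Zfp626, Zfp277, Zfp113, Zfp710 and Zfp131, picked by values that enter both ratios, lie above 0 in IP and below 0 in Input.

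Markers of sensory neurons and of other cells were among the genes called in these comparisons. Over all genes, 3.72% were called higher and 5.02% lower in IP, 8.34% and 8.7% in Input, and 5.45% and 8.81% in the interaction. Of the 15 sensory neuron markers, 2 were called higher and 3 lower in IP, 2 and 2 in Input, and 4 and 2 in the interaction. None of the 8 macrophage and 3 Schwann cell markers in the table was called in Input, and 1 macrophage marker was called lower in the interaction. In IP, 1 macrophage marker was called higher. The 5 fibroblast markers in the table, of 6 listed, summed to 708.6 CPM in the IP library labelled shGpr151 and 546.5 in IP control. In Input they summed to 74.65 CPM in shGpr151 and 92.37 in control. Of the 5, 3 were called higher in IP, 1 lower in Input and 3 higher in the interaction. The 7 satellite glia markers summed to 1940 CPM in IP shGpr151, 1742 in IP control, 389.2 in Input shGpr151 and 398.4 in Input control. In the Input hairpin comparison 3 were called lower and 1, Fabp7, higher. In IP 1 was called higher and 1 lower, and in the interaction 3 higher and 1 lower. The part of these cells in the Zfp values was not tested.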

How the data were processed

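Per the labels' protocols, sequencing used a barcoded nanopore kit for amplified cDNA. Minimap2, Salmon and the builds GRCm39 and mm39 are named in the submitters' processing notes, which give no versions. What the authors deposited is 1 table of raw counts per gene, whole numbers with a lowest value of 1. Symbols matched 9061 of the 9073 gene IDs. The members, role lists and thresholds were chosen with earlier results of these data known. A role list holds genes by known function, whatever their values. No coordinates of the files' build and no transcript lengths were at hand.

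Samples of a group agreed to counting noise, so counts were summed per group. CPM are of library totals. For log2 ratios the summed counts were divided by the group's summed TMM effective sizes. Their 95% intervals are Clopper-Pearson intervals of the conditional binomial, and Wald intervals for the interaction. Counts over the 12 samples were tested with edgeR 4.0.16 (R 4.3.3): TMM, filterByExpr at a minimum count of 10 (8312 genes kept), glmQLFit and glmQLFTest on group means, and Benjamini-Hochberg adjustment over all genes at 0.05. Its common coefficient of variation was 1.23%, since the samples of a group differ by little beyond counting noise, so each group was treated as 1 library, calls compare libraries and no p-value of a gene is given. Test statistics were recomputed with R's negative binomial glm where edgeR's likelihood ratio and Wald statistics differed widely, 79 of them in the fit of the 12 samples. That refit was chosen after seeing the data. Alternatives were RLE sizes, library totals, other filters, a replicate block, the compared groups alone, leaving out each sample, DESeq2 1.42.0, and 1 library per group with an assumed coefficient of variation of 10%.

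Named genes were the 5 largest called ratios per comparison and direction, the 10 members with the highest summed IP CPM, up to 6 called members per role list, and up to 3 genes per related list by smallest p; Zfp60, Zfp445, Zfp536, Zfp622, Zfp809, Zfp11 and Zfp689 were added after their values were seen. On simulated counts the test recovered, of 50 genes changed at each of 4-fold, 2-fold and 1.5-fold, 44, 31 and 20 in IP (7589 genes, 4 unchanged genes called), 34, 20 and 13 in Input (4843 genes, 0 called) and 28, 16 and 9 between IP and Input in control (4463 genes, 1 called).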

Additional observations from a re-analysis of the deposited data

Results flagged for a closer look

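For 10 Zfp genes the hairpin log2 ratio in IP differed from that in Input by edgeR's interaction test. IP was higher by 0.586 for Zfp410, 0.759 for Zfp626, 1.28 for Zfp367, 0.844 for Zfp277, 0.742 for Zfp131, 0.888 for Zfp710, 0.979 for Zfp113 and 1.94 for Zfp36. The difference was -1.53 for Zfp617 and -1.92 for Zfp993. Each fraction is 1 library per treatment, so these are differences between libraries.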

How the results depend on the processing

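Over 80 pairs of a named Zfp gene and a comparison in which it was called, 76 kept direction and call with RLE size factors, 77 without a filter, 64 by DESeq2 and 53 with 1 library per group and an assumed coefficient of variation of 10%. Same-numbered samples did not vary together (correlation of -0.012 to 0.021 over 18 pairs), and the replicate block left all 80 as they were, with 2 Zfp genes called in IP, 12 in Input, 56 and 60 between IP and Input in control and shGpr151, and 10 in the interaction. Omitting 1 sample ended the call of 22 pairs and gave 0 to 3 called Zfp genes in IP and 4 to 10 in the interaction. DESeq2 called 0, 7 and 6 Zfp genes in IP, Input and the interaction, and the assumed variation 0, 0 and 0. A mean of at least 20 counts left 33 Zfp genes, with 1 called in IP, 28 between IP and Input in shGpr151 and 31 in control, and medians there of -1.23 and -1.36. The 29 genes with 30 or more counts in each library had medians of -1.49 in shGpr151 and -1.36 in control, where all 4026 genes at that depth had -0.65 and -0.50, and all 134 without a filter -0.69 and -0.67, against -0.44 and -0.38 for the 99 tested.

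On library totals alone 85 Zfp genes were called between IP and Input in control, with a median of 1.79, against 1.75 in shGpr151, and the IP hairpin median was 0.118. On that scale the IP to Input ratio turned positive in shGpr151 for Zfp993 (0.854), Zfp617 (0.596), Zfp938 (0.99), Zfp932 (1.58), Zfp593 (0.703), Zfp703 (1.21) and Zfp652 (1.27). It did so in control for Zfp36 (0.566), Zfp938 (0.811), Zfp932 (1.48), Zfp593 (1.14) and Zfp652 (0.859). That scale adds 1 constant to every gene. Depth limits the Input side most, where 85 of the 134 genes had under 30 counts in shGpr151 and 85 in control.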
